A study of Drosophila melanogaster with 6 samples.

Results

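The Kunitz-type inhibitor gene cluster with *IM33*, as defined here, is made up of *CG3604*, *IM33* (older symbol *CG16712*), *CG16713* and *CG43165*. These are 4 adjacent genes on chromosome arm 2L. They were chosen by symbol out of the 367 genes that the authors listed as changed in the head 4 hr after penetrating traumatic brain injury (PTBI), and all 4 are among the 259 genes listed as higher. The values that chose them are therefore those of the PTBI against uninjured control contrast itself, and this contrast is described below without a test. The study used bulk RNA-Seq of whole heads from 3 PTBI samples and 3 uninjured control samples. PTBI flies were males that a fine needle had injured in both hemispheres of the central brain, taken 4 hr later, and controls were males of matched age without injury; the sources used here do not say whether controls were anaesthetized. All flies were collected as young adults within 6 hr of eclosion, and each sample pooled about 100 to 120 heads. Flies of both groups were offspring of *w; UAS-mCD8-GFP;; OK107-GAL4* parents crossed to *yw*, so that controls also carry the *OK107-GAL4* driver, known for its expression in the mushroom body, and the membrane GFP reporter.

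Kunitz-type proteins are small inhibitors of serine proteases, held together by disulfide bonds, that block a protease by placing an exposed loop in its active site. Serine protease cascades in the haemolymph lie upstream of the Toll ligand Spätzle and of melanization, and protease inhibitors restrain such cascades. *IM33* owes its name to the immune-induced molecules, peptides and small proteins found in the haemolymph of infected flies. That the 4 genes encode Kunitz-type proteins is background from their family name, since the files and the annotation used here give no protein family. The individual substrates of the 4 proteins are not given in the sources used here.

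All 4 genes lie on the minus strand of chromosome 2L in the BDGP6 assembly, between positions 3694431 and 3697872, a span of 3442 bases. In the direction of transcription the order is *CG3604* (2L:3697242-3697872), *IM33* (2L:3696218-3696658), *CG16713* (2L:3695032-3695411) and *CG43165* (2L:3694431-3695020). The annotation gives *CG3604* an exon length of 631 bases without an intron and a coding sequence for 132 residues. *IM33* has 381 exon bases, an intron of 60 bases and 82 residues. *CG16713* has 325 exon bases, an intron of 55 bases and also 82 residues, and *CG43165* has 532 exon bases, an intron of 58 bases and 95 residues. The gaps between neighbours differ. *CG3604* and *IM33* are 583 bases apart and *IM33* and *CG16713* 806 bases, but only 11 bases separate the annotated end of *CG16713* from the start of *CG43165*. No exon of the 4 genes overlaps another annotated gene. The treatment of reads with more than 1 mapping place is not stated in the sources used here, so the split of reads between similar members of the family is uncertain.

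**Figure D1:**
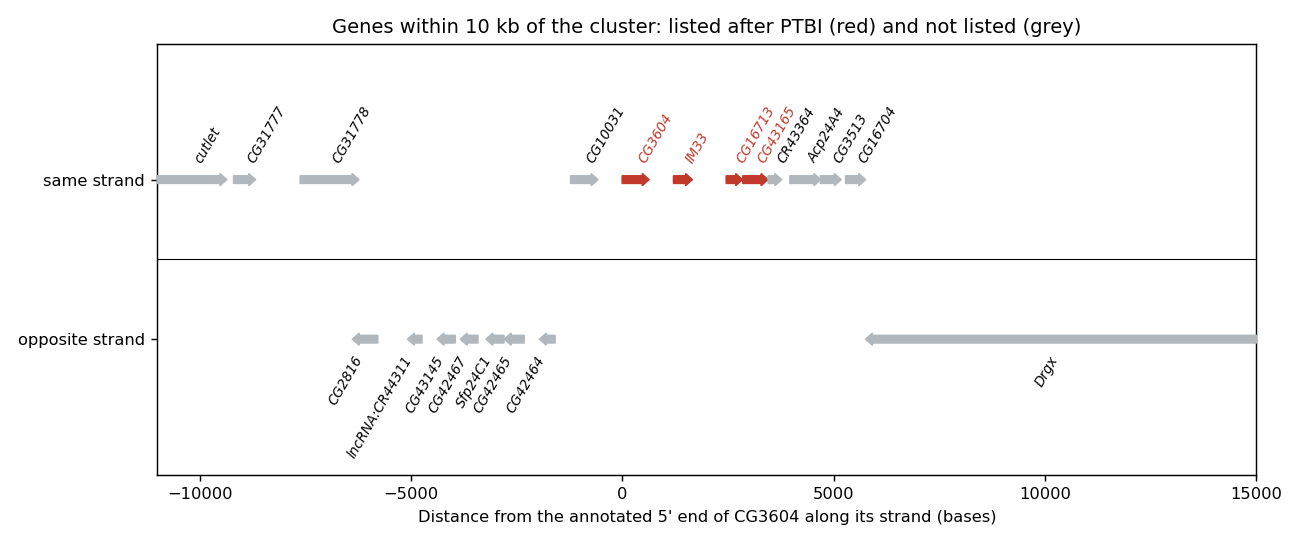
Map of the annotated genes within 10 kb of the cluster, as distance in bases from the 5′ end of *CG3604* along its strand, with arrows for the direction of transcription. The 4 adjacent genes of the cluster (red) were listed as higher after PTBI, and the 16 other annotated genes in this window (grey) were not listed; arrows of genes that run past the frame are cut at its edge.

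The genes of the cluster were chosen from the listed genes, so where the cluster ends is not a finding about the response. An adjacent listed gene could have been taken as a further member. Within 10 kb on each side there are 16 other annotated genes, of which 0 were listed. On the upstream side the nearest is *CG10031*, 578 bases before *CG3604* on the same strand. On the downstream side the nearest is the pseudogene *CR43364*, 12 bases past *CG43165* and also on the same strand, followed by *Acp24A4*, *CG3513* and *CG16704*. These genes have no value here, because the deposited tables hold only genes past the thresholds of the listing, which were a 2-fold difference and an adjusted p of 0.05. A gene that was not listed may have changed less, or may have been too low for the authors' test.

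Within 50 kb there are 26 other annotated genes, and 1 of them was listed as higher. It is *lectin-24A*, a gene of the C-type lectin family, 18927 bases away on the minus strand (2L:3716800-3717773). *lectin-24A* was at 2.45, 5.78 and 5.31 RPKM in PTBI replicates 1, 2 and 3, against 1.24, 0.454 and 0.735 RPKM in the controls, a 5.57-fold higher mean. RPKM are reads per kilobase of gene, scaled to the total reads of the library. Its lowest PTBI value was in replicate 1, as in 3 of the 4 genes of the cluster. Its highest was in replicate 2, close to replicate 3, which was the highest in all 4 genes. At 100 kb the count was still 1 of 43 other genes.

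Runs of adjacent listed genes were found elsewhere too. Over the annotated genes in genome order, without transposable elements, 28 runs of at least 2 listed genes were counted. Of these runs 21 held 2 genes, 4 held 3 genes, 2 held 4 genes and 1 held 5 genes. The longest was part of the Bomanin cluster on 2R (*BomBc2*, *BomS2*, *BomS3*, *BomT2* and *BomS5*), and the other run of 4 was *CG34051*, *CG42866*, *CG13965* and *CG16772* on 2L. All genes in these runs of 4 or 5 were listed as higher, as were 259 of all 367 listed genes.

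*IM33* was the most abundant of the 4 transcripts. It was at 1057, 1251 and 1557 RPKM in PTBI replicates 1, 2 and 3, against 545, 657 and 643 RPKM in control replicates 1, 2 and 3. The lowest PTBI sample was 1.61 times the highest control sample, so the groups did not overlap. The means were 1288 ± 252 RPKM in PTBI heads, against 615 ± 60.9 RPKM in control heads (SD, n = 3 each), a ratio of 2.09. *IM33* was already high without injury, at rank 4 of the 259 genes listed as higher by control RPKM, but at rank 243 by fold. It thus lies close to the 2-fold limit of the listing, and the ratio was 1.88 without PTBI replicate 3 and 1.98 without control replicate 1.

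*CG16713* was the next most abundant. Its values were 288, 289 and 399 RPKM in PTBI replicates 1, 2 and 3, against 101, 107 and 108 RPKM in the controls. PTBI replicate 3 stood above the other PTBI samples, which were almost equal, and the controls lay close together. The means were 325 ± 63.6 RPKM in PTBI heads, against 106 ± 3.84 RPKM in control heads (SD, n = 3 each), 3.08-fold higher. The coefficient of variation was 19.6% among PTBI samples and 3.64% among controls. No PTBI sample came near the controls, since the lowest was 2.67 times the highest control.

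*CG3604*, which encodes the longest of the 4 proteins, was far lower. It was at 11.4, 11.98 and 15.4 RPKM in PTBI replicates 1, 2 and 3, against 3.19, 4.60 and 4.12 RPKM in control replicates 1, 2 and 3. Again PTBI replicate 3 was the highest and control replicate 1 the lowest, and the groups did not overlap. The means were 12.9 ± 2.17 RPKM in PTBI heads, against 3.97 ± 0.717 RPKM in control heads (SD, n = 3 each), 3.26-fold higher. These values rest on 217, 184 and 342 reads in the PTBI samples and on 60, 105 and 69 reads in the controls.

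*CG43165* was the lowest. It was at 3.74, 2.08 and 4.22 RPKM in PTBI replicates 1, 2 and 3, against 0.883, 0.676 and 1.06 RPKM in the controls. PTBI replicate 2 was the lowest PTBI sample here, unlike in the other 3 genes. The means were 3.35 ± 1.12 RPKM in PTBI heads, against 0.874 ± 0.193 RPKM in control heads (SD, n = 3 each), 3.83-fold higher. Few reads stand behind these values, 60, 27 and 79 in the PTBI samples and 14, 13 and 15 in the controls. PTBI replicate 2 had an exact Poisson 95% interval of 1.37 to 3.03 RPKM, and the highest control, replicate 3, one of 0.595 to 1.75 RPKM, so that the counting intervals of these 2 samples overlap although the values do not. Such intervals cover counting error only. The ratio was 4.55 without PTBI replicate 2 and 3.33 without PTBI replicate 3.

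**Figure D2:**
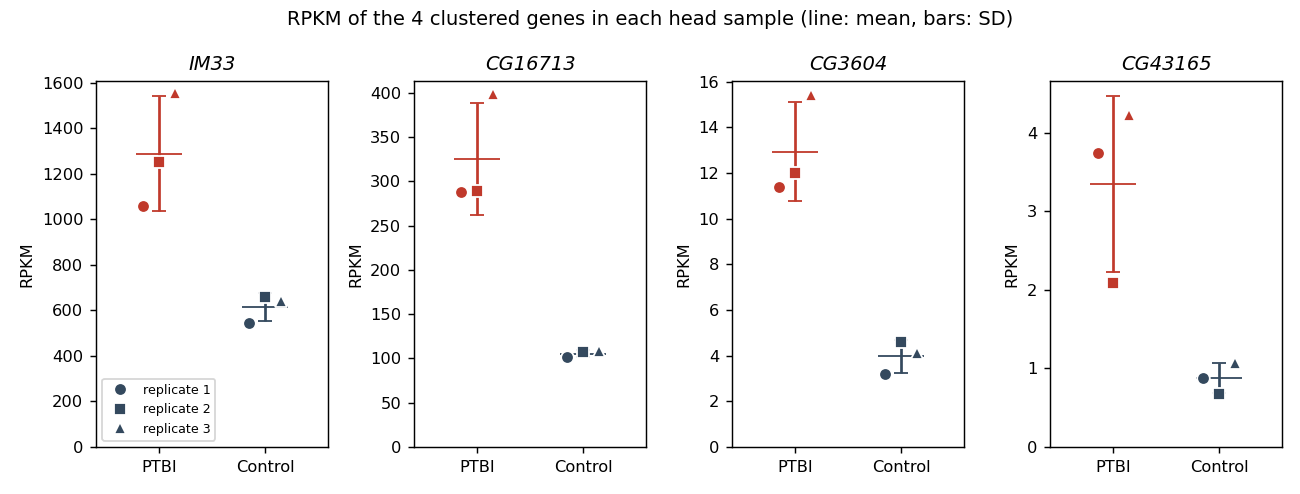
RPKM (y axis, from 0, own scale for each gene) of *IM33*, *CG16713*, *CG3604* and *CG43165* in the 3 PTBI samples and the 3 control samples, with the group mean (line) and SD (bars). In each gene every PTBI point is above every control point, and PTBI replicate 3 (triangle) is the highest.

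The ratio of means was 2 or more in 4 of 4 genes of the cluster, against a background of 70.0% over all listed genes, and the groups did not overlap in 4 of 4, against 70.6%. Since the listing itself was made on this contrast, nothing follows from these counts. In bulk heads, more cells of a type and more RNA per cell cannot be told apart. The median fold of the 4 genes was 3.17, beside 3.13 over the genes listed as higher and 2.53 over all listed genes. The 4 genes were thus at ranks 104 (*CG43165*), 124 (*CG3604*), 135 (*CG16713*) and 243 (*IM33*) of 259 by fold.

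Levels of the 4 genes, which RPKM makes comparable per length, spread over a wide range and did not change their order. In all 6 samples the order was *IM33*, *CG16713*, *CG3604* and *CG43165*, with no overlap between neighbours in either group. *IM33* made up 79.0 ± 1.41% of the summed RPKM of the cluster after PTBI and 84.7 ± 0.806% in controls (SD, n = 3 each). *CG16713* made up 20.0 ± 1.31% after PTBI and 14.6 ± 0.840% in controls. *CG3604* and *CG43165* together made up at most 1.11% of the sum, in PTBI replicate 1. Counted as reads, the cluster took 505, 579 and 735 CPM (reads scaled to library size) in PTBI replicates 1, 2 and 3, against 243, 289 and 283 CPM in the controls. The summed RPKM was 1629 ± 314 after PTBI and 725 ± 65.4 in controls (SD, n = 3 each), 2.25-fold higher, a value set mainly by *IM33*.

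**Figure D3:**
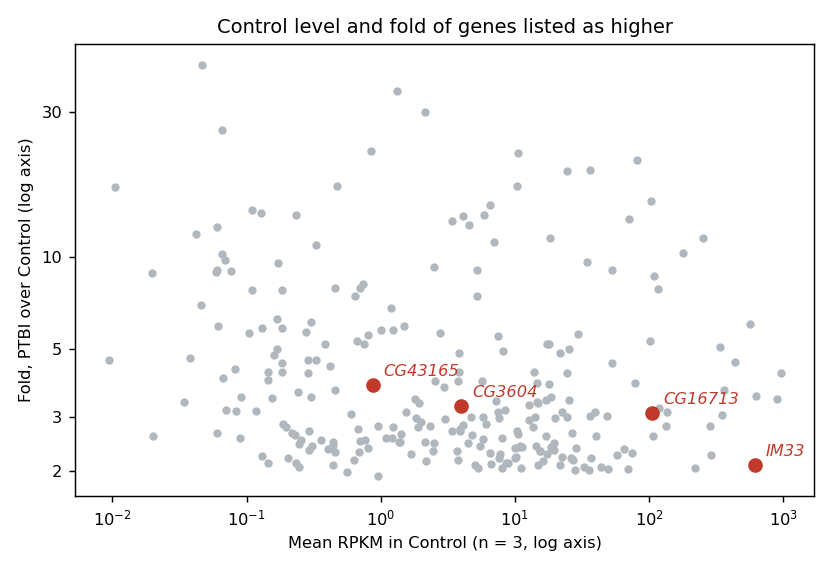
Mean control RPKM (x axis, log scale) and fold of PTBI over control (y axis, log scale) of the 259 genes listed as higher, with the 4 genes of the cluster in red. *IM33* lies at the right with a ratio of 2.09, and the 3 others lie between 3.08 and 3.83 at lower control levels.

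By fold the order of the 4 genes was the reverse of that by level, with *CG43165* first and *IM33* last. Only the last place held when samples were left out. Taking PTBI over control samples of the same replicate number, the ratio was 1.94, 1.90 and 2.42 for *IM33*, and 2.85, 2.69 and 3.69 for *CG16713*. These ranges did not overlap, but the labels do not pair samples by number. Other pairings were not taken and can give overlapping ranges. For *CG3604* the ratio was 3.57, 2.60 and 3.74 at replicate numbers 1, 2 and 3. For *CG43165* it was 4.23, 3.09 and 3.97. The ranges of *CG16713*, *CG3604* and *CG43165* overlapped, and their order changed when control replicate 1 or control replicate 2 was left out, while *IM33* remained last without each of the 6 samples in turn.

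**Figure D4:**
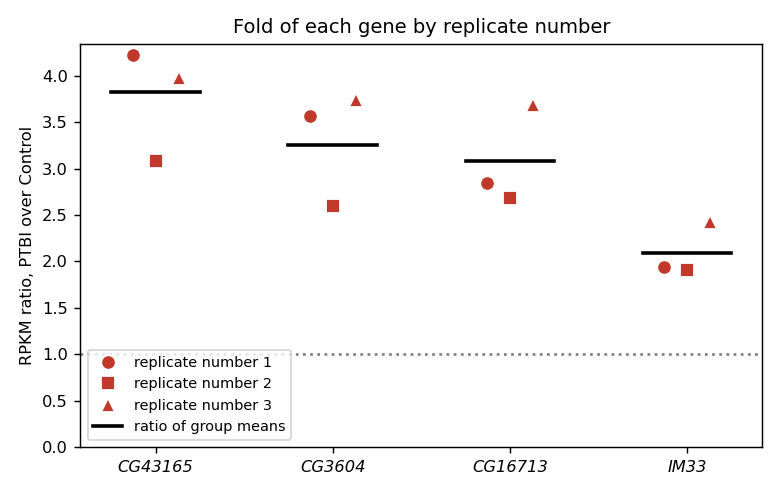
RPKM ratio of PTBI over control (y axis, from 0) for each gene, with points for samples of the same replicate number and a line for the ratio of group means. With samples taken by number, which the labels do not pair, the points of *IM33*, from 1.90 to 2.42, lie below those of the 3 other genes, which overlap each other.

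The ratio of 2 genes within the same sample does not depend on how libraries were scaled, so the unequal rise was also described in this way. *IM33* over *CG16713* was 3.67, 4.33 and 3.91 in PTBI replicates 1, 2 and 3, against 5.39, 6.12 and 5.95 in the controls. The groups did not overlap, and the mean ratio after PTBI was 0.682 times that in controls. *IM33* over *CG3604* was 99.4 ± 5.99 after PTBI and 157 ± 14.0 in controls (SD, n = 3 each), again without overlap. *IM33* over *CG43165* was 283, 600 and 369 after PTBI, against 617, 972 and 605 in controls, so that the highest PTBI sample, replicate 2, came close to the lowest control, replicate 3. In the 3 pairs without *IM33* the groups overlapped. *CG16713* over *CG3604*, for example, was 25.1 ± 0.898 after PTBI and 27.1 ± 4.24 in controls (SD, n = 3 each). The ratio did not overlap between groups in 3 of the 6 pairs, beside 45.7% of the pairs among 254 genes listed as higher. Ratios that shift between the groups were thus common among the listed genes. The 3 pairs of the cluster without overlap all hold *IM33*, so they are not independent of each other.

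**Figure D5:**
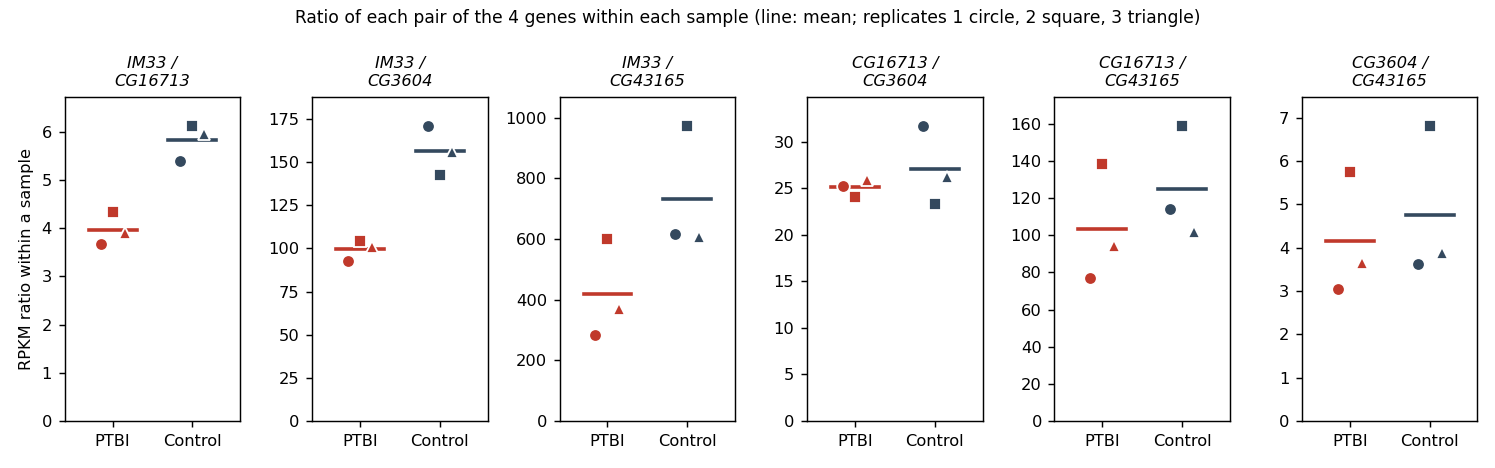
RPKM ratio within each sample (y axis, from 0, own scale for each pair) for the 6 pairs of genes, with PTBI and control samples as points and the group means as lines. The 3 ratios with *IM33* on top are lower in every PTBI sample than in every control, and the 3 others overlap.

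The neighbours *CG16713* and *CG43165*, 11 bases apart on the same strand, differed widely in level. *CG16713* over *CG43165* was 77.1, 138 and 94.4 in PTBI replicates 1, 2 and 3, against 114, 159 and 102 in the controls. This ratio overlapped between the groups, and it was highest in replicate 2 of each. At the low level of *CG43165* this comparison is limited by its reads.

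The PTBI samples did not rise equally. Replicate 3 was the highest PTBI sample in 4 of the 4 genes, while over the 259 genes listed as higher it was the highest in 35.9% and replicate 2 in 50.6%. Replicate 1 was the lowest PTBI sample in *IM33*, *CG16713* and *CG3604*, as it was in 57.1% of the genes listed as higher. The members of a cluster share their libraries, so these counts are not independent of each other. For *IM33* the spread between samples was well above counting error, with an SD of 252 RPKM after PTBI beside 10.7 RPKM from counting. For *CG43165* in controls the SD was 0.193 RPKM, beside 0.235 RPKM from counting.

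Among the listed genes outside the cluster, likeness to each member was measured as the root mean square difference of log2(RPKM + 1), centred on the gene mean, over the 6 samples. *IM33* was closest to *CG5002* (difference 0.09), *CG15784* (0.10) and *GstD9* (0.11), a glutathione S-transferase gene. *CG16713* was closest to *Tep2* (0.09), which encodes a thioester-containing protein of the haemolymph, *GstD5* (0.11) and *Pepck2* (0.13), a phosphoenolpyruvate carboxykinase gene. *Tep2* was at 147 ± 15.8 RPKM in PTBI heads, against 48.8 ± 0.904 RPKM in control heads (SD, n = 3 each), 3.02-fold higher. *GstD5* owes its place to the scale, since its fold was 7.94 at a control level of 0.460 RPKM and the added 1 understates the change of such low genes. *CG3604* was closest to *spz* (0.13), the Toll ligand gene, *Pepck2* (0.13) and *Tep2* (0.14). *CG43165* was closest to *pirk* (0.14), a negative regulator of the Imd pathway, *CG34454* (0.19) and *Pepck2* (0.19). It is itself low, at 0.874 RPKM in controls, and the added 1 took its ratio from 3.83 to 2.27. With 0.1 added in place of 1, only 1 of the 3 genes remained for *CG43165*, and 1 of 3 for *CG3604*. Within the cluster, *CG16713* and *CG3604* were the most alike pair, at 0.12, closer than any listed gene outside the cluster was to *CG3604*. *CG16713*, however, was closer to *Tep2* (0.09) and *GstD5* (0.11) than to *CG3604*. *IM33* and *CG43165* were each closer to the outside genes named for them than to any other member. The other 5 pairs of members differed by 0.23 to 0.31. These are descriptions over 6 samples that share their libraries.

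Serpins, another large family of serine protease inhibitors, were looked up beside the cluster. Of 28 annotated serpin genes 4 were listed, all as higher, as were 259 of the 367 listed genes. The share of all annotated genes that were listed was not counted, so 4 of 28 has no background here. The median fold of the listed serpins was 2.97. *Spn88Eb* was 5.18-fold higher, at 93.4 ± 17.9 RPKM in PTBI heads, against 18.0 ± 2.73 RPKM in control heads (SD, n = 3 each). *Spn55B* was 2.83-fold higher, at 11.6 ± 2.32 RPKM in PTBI heads, against 4.08 ± 0.278 RPKM in control heads. *Spn27A* and *Spn28Dc*, serpins of the melanization response, had ratios of 3.12 and 2.05. The folds of all 4 genes of the cluster lie within the range of the listed serpins, from 2.05 to 5.18. Both sets passed the same 2-fold limit, and serpins that were not listed have no RPKM here, so the 2 families are not compared by this.

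Of 13 genes with an immune-induced molecule number as symbol or synonym, 11 were listed, all as higher, and *IM18* and *Nplp2* were not. Of all 367 listed genes 259 were higher, and the share of all annotated genes that were listed was not counted. *IM33* had the lowest fold of the 11, and the next lowest was *Dso1* (listed as *IM4*), at 3061 ± 245 RPKM in PTBI heads, against 891 ± 66.1 RPKM in control heads (SD, n = 3 each), 3.44-fold higher. The median fold of the 11 genes was 4.99. In control level *IM33*, at 615 RPKM, was close to *BomS3* (listed as *IM3*), at 2194 ± 101 RPKM in PTBI heads, against 623 ± 78.2 RPKM in control heads. *BomS3* was 3.52-fold higher after PTBI.

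Cell type markers could be looked up only as far as they were listed. Of 7 fat body markers, *Lsp2*, *Lsp1beta* and *apolpp* were listed as lower, and *Yp1*, *Yp2*, *Fbp1* and *Fbp2* were not listed. Whether these 7 markers suit males this soon after eclosion was not checked, so they are no measure of the adult fat body. The summed level of the listed fat body markers was 135 to 314 RPKM after PTBI and 1077 to 1690 RPKM in controls. Of 5 glial markers, *wrapper* was listed as lower and the other 4 were not listed. The level of *wrapper* was 7.75 to 9.06 RPKM after PTBI and 24.2 to 26.6 RPKM in controls. None of 6 haemocyte, 4 muscle, 5 neuron and 5 photoreceptor markers was listed, so the labelled tissue could not be checked against them. The part of changing cell types in the values of the cluster was not tested. Library totals recovered from RPKM of annotated listed genes were 24.3 to 35.2 M reads after PTBI and 26.5 to 36.2 M reads in controls.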

How the data were processed

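RNA-Seq of 3 PTBI and 3 control head samples was analysed from the deposited tables. The authors mapped single-end 50 bp reads with Subjunc (Subread) to a FlyBase genome of unstated release, counted reads per gene, and listed genes from voom and limma. The values used are the RPKM that the authors deposited for each sample. The tables also hold the authors' mean expression, fold changes and p-values, which were not used. The 4 genes and all lists were chosen with earlier results of these data known. The named genes follow a rule: the members, the 3 listed genes most like each, listed genes within 50 kb, listed serpins and immune-induced molecules. *Spn* (spinophilin) was left out of the serpins. The likeness scale was log2(RPKM + 1). Identifiers were matched to Ensembl 115 (BDGP6) for 360 of 367 genes. Library sizes were taken as those at which RPKM and exon lengths of the matched genes gave whole reads. At these sizes 357 genes had whole reads (within 0.02) in all 6 samples. The reads gave the intervals. The recovery of library sizes was tested on simulated data. Synonyms came from RefSeq (Release 6). Folds are ratios of mean RPKM. Over the listed genes, deviations from the group mean correlated at 0.24, 0.12 and 0.16 between same-numbered samples, and at -0.21 to 0.02 between the others. These values are low, deviations within a group offset each other, and the labels give no shared batch or day. Fold alternatives were group medians, the replicate block, pseudocounts of 1 and 0.1, scaling to the median listed gene and each sample left out. Work was done in Python 3.11.15 with scipy 1.17.1, pandas 2.3.3, matplotlib 3.10.9 and numpy 2.4.6.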

Additional observations from a re-analysis of the deposited data

How the results depend on the processing

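All ratios of the cluster stayed above 1 under every alternative run. Because every PTBI value was above every control value in the 4 genes, only the scaling could have taken a ratio below 1. Scaling each sample to its median listed gene gave 1.24 for *IM33*, 1.82 for *CG16713*, 1.94 for *CG3604*, 2.28 for *CG43165* and 1.33 for the summed RPKM, because this median was itself 0.76 higher (log2) after PTBI and most listed genes were listed as higher. Group medians took *CG16713* to 2.69, and log2(RPKM + 1) took *CG43165*, the gene with the lowest level, to 2.27 and made the order by fold *CG16713*, *CG3604*, *CG43165* and *IM33*. Leaving out each sample in turn gave 1.88 to 2.28 for *IM33*, 2.73 to 3.26 for *CG16713*, 2.94 to 3.54 for *CG3604*, 3.33 to 4.55 for *CG43165* and 2.01 to 2.43 for the sum. With the replicate block, the geometric mean of same-numbered ratios, the values were 2.07, 3.05, 3.26 and 3.73 for *IM33*, *CG16713*, *CG3604* and *CG43165*. With a pseudocount of 0.1, 1 of the 3 genes most like *CG3604* and 1 of those most like *CG43165* remained. Alternatives on cysteine patterns and promoter motifs were not run, and reads set the limit for *CG43165*.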
